A study of Homo sapiens with 5 samples.

Results

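The transcription factor genes ZEB1, ZEB2, SNAI1, SNAI2, TWIST1 and TWIST2 and the mesenchymal marker genes VIM and FN1 were followed in 5 RNA-seq libraries of human pigment cells. These 8 genes were taken by symbol, and all 8 were found by Ensembl identifier among the 31029 genes that the count files of both cell lines list. All 8 were also among the 17918 genes tested. The study asked what the chromatin remodelling complex NURF, through its largest subunit BPTF, does in cells of the melanocyte lineage.

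The libraries came from 501Mel, a human melanoma cell line, with 2 replicates, and Hermes 3A, a line of untransformed human melanocytes, with 3 replicates. All 5 libraries carried shBPTF, a lentiviral short hairpin RNA against BPTF, and the infected cells had been selected with puromycin. Both lines were grown in RPMI medium with foetal calf serum, and the Hermes 3A medium also held the phorbol ester TPA, cholera toxin, stem cell factor and endothelin. The comparison is therefore between the lines after knockdown. Line, medium and the response of each line to shBPTF were never separated, so that their parts in a difference cannot be told apart. Libraries with a control hairpin were not analysed here, and no value below measures an effect of shBPTF. The study used 2 different hairpins against BPTF, and the labels do not say which one a library carried. Nothing in the labels says that the replicates were separate cultures, so that p-values measure only the spread between these libraries.

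Epithelial-mesenchymal transition (EMT) is a change in which cells loosen their contacts, lose epithelial junction proteins and become motile. The ZEB proteins are zinc finger and homeodomain factors, the SNAI proteins are zinc finger factors, and both families repress genes such as CDH1 by binding E-box sequences. TWIST proteins are basic helix-loop-helix factors that bind E-boxes as dimers. Melanocytes arise from the neural crest, whose cells leave the neural tube through a transition of this kind. In melanocytes, ZEB2 and SNAI2 are known as factors of the differentiated lineage, and in melanoma a shift of balance from ZEB2 and SNAI2 towards ZEB1 and TWIST1 is known from less differentiated states.

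Promoter sequences of the genes that were close to absent from one line, ZEB1 and TWIST2, and of VIM, the member with the highest level per length, are given below from RefSeq on GRCh38.p14. Each runs 5′ to 3′ along the gene's strand and ends just before the first annotated exon. ZEB1 has 7 annotated start sites in this table, and the one farthest upstream is shown, at chr10:31318167-31318416 on the plus strand. The TWIST2 sequence lies at chr2:238847835-238848031 and the VIM sequence at chr10:17227991-17228240, both on the plus strand. Capitals mark the E-box letters CACCTG, read on either strand, which ZEB and SNAI proteins are known to bind.
ZEB1: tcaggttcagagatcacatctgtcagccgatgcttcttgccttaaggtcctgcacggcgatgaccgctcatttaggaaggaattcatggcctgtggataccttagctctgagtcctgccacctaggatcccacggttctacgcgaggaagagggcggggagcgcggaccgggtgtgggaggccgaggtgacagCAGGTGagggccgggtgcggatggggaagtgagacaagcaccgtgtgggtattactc
TWIST2: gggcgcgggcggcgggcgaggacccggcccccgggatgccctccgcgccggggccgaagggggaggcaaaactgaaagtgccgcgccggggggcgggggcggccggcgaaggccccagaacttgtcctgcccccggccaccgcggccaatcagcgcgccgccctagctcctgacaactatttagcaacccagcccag
VIM: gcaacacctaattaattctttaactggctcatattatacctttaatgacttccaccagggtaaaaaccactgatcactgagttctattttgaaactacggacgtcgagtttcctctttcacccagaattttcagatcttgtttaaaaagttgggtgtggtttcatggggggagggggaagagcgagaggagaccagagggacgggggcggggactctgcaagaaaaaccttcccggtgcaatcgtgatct

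The ZEB1 sequence held 1 such E-box, written CAGGTG on this strand, 51 bases before the exon. The TWIST2 and VIM sequences held neither this E-box nor any letters of the wider form CANNTG, which includes it, and their GC content was 75.6% and 46.0% against 59.2% for ZEB1. Over the 250 bases before each of the 7 ZEB1 start sites, 2 windows held CACCTG and 4 held CANNTG. The FN1 window held neither, and the ZEB2 window held CANNTG but not CACCTG. Among all 35116 windows of this length, 17.5% held CACCTG and 61.8% held CANNTG on either strand. These matches are a description of the letters in the windows. SNAI1 and TWIST1 had no entry in the table, and the windows of the other members are not printed.

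The libraries held 43032311 and 37856675 counts in 501Mel and 41653084, 40865034 and 30073071 counts in Hermes 3A. Levels are given as CPM, counts scaled to a common library total, and 3 counts, taken as the limit that a count of 0 allows, correspond to 0.0697 to 0.0998 CPM. Intervals and limits of this kind cover counting error only. BPTF itself stood at 61.8 CPM ± 5.65 (SD, n = 2) in 501Mel and 50.5 CPM ± 4.30 (SD, n = 3) in Hermes 3A, a log2 difference of 0.23 ± 0.139 (SE) with an edgeR adjusted p of 0.211. All 8 melanocyte lineage markers were detected in every library, with summed levels of 12786 to 19733 CPM in 501Mel and 31807 to 32855 CPM in Hermes 3A. The summed level of 7 fibroblast markers was 4.38 to 19.1 CPM in 501Mel and 78.6 to 189.8 CPM in Hermes 3A. This sum was mostly COL1A2 in Hermes 3A, at a mean of 145.6 CPM, while the other 6 markers stood at means of 0.0434 CPM (DCN), 0.132 (COL3A1), 0.185 (PDGFRB), 0.680 (COL1A1), 0.877 (PDGFRA) and 3.15 (LUM, 7.35 in replicate 1) there. The keratinocyte markers listed in both gene lists summed to 32.9 to 34.2 CPM and 43.8 to 48.1 CPM, almost all of it KRT10. The part of other cells in the results was not tested, and in bulk RNA fewer cells that express a gene and less RNA per cell cannot be told apart.

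Of the 8 members, 2 were called higher in 501Mel (ZEB1 and SNAI1) and 4 higher in Hermes 3A (SNAI2, TWIST1, TWIST2 and VIM), at an adjusted p of 0.05 in the edgeR quasi-likelihood test. Over all tested genes, 24.3% were called higher in 501Mel, 24.1% higher in Hermes 3A and 48.4% in either direction. With at least a 2-fold difference, 4 members were called (ZEB1, SNAI1, TWIST1 and TWIST2), against 34.3% of all tested genes. The libraries of the lines did not overlap for 6 members, as for 69.9% of all tested genes. Without replicate 1 of 501Mel 1 member was called higher in 501Mel and 3 higher in Hermes 3A, and without replicate 1 of Hermes 3A 5 were called higher in Hermes 3A. The median log2 difference, 501Mel minus Hermes 3A, was -0.72 over the members and 0.02 over all tested genes, and that of the members was the same with TWIST2 at the limit that its count of 0 allows. The median size of the difference was 1.10 over the members and 0.79 over all tested genes. ZEB1 and SNAI1 passed the filter on low counts only through 501Mel, and TWIST2 only through Hermes 3A. The filter thus favoured a difference in these 3 genes before any test. The same holds, in the lists described below, for called genes that fewer than 2 libraries of the lower line would have passed, at a limit of 0.245 CPM a library, and their number is given with each list. The counts and medians of the lists are descriptions for this reason.

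**Figure D1:**
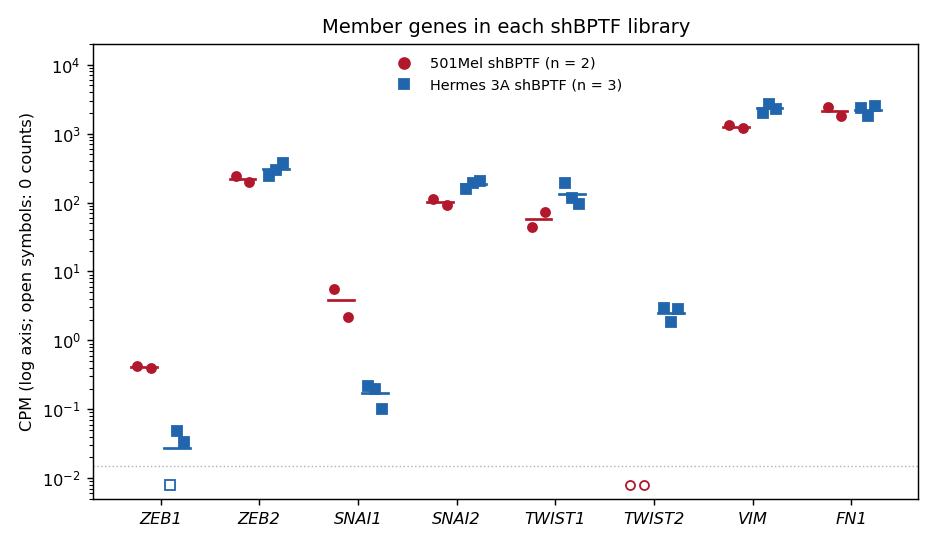
Level of each of the 8 genes in every library, as CPM on a log axis. Circles are the 2 501Mel shBPTF libraries, squares the 3 Hermes 3A shBPTF libraries, lines the group means, and open symbols below the dotted line libraries with 0 counts. ZEB1 and SNAI1 lie higher in 501Mel, TWIST2 has no count there, and ZEB2 and FN1 overlap.

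ZEB1 (ENSG00000148516, GRCh38 chromosome 10, 31318495 to 31529814, plus strand), the family member known from dedifferentiated melanoma states, was near the limit of detection everywhere. It had 18 and 15 counts in 501Mel, or 0.418 and 0.396 CPM. In Hermes 3A it had 0, 2 and 1 counts, or 0, 0.0489 and 0.0333 CPM. Both 501Mel libraries were thus above the limit of 3 counts, and no Hermes 3A library was. The log2 difference was 3.72 ± 0.788 (SE; 95% interval 1.87 to 5.57; edgeR adjusted p = 0.00737). As ZEB1 passed the filter on low counts only through 501Mel, this p is given as a description. From 33 against 3 counts in all, the ratio of the lines was 15.3, with a counting interval of 4.80 to 78.0. Without replicate 1 of 501Mel the call was lost, at a log2 difference of 3.68 and an adjusted p of 0.0509, the highest of the 11 alternatives, whose adjusted p began at 0.00465. It was 3.13 without replicate 1 of Hermes 3A and 4.43 without replicate 2. ZEB1-AS1, an antisense transcript over 4.23% of the ZEB1 exon bases, had 12 and 3 counts in 501Mel and 0, 4 and 0 in Hermes 3A, and the sources do not say whether the counting used strand.

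ZEB2 (ENSG00000169554, chromosome 2, 144364364 to 144524583, minus strand), the family member of differentiated melanocytes, was expressed in every library. It stood at 246.4 and 199.1 CPM in 501Mel and at 244.0, 301.4 and 371.7 CPM in Hermes 3A. Replicate 1 of 501Mel and replicate 1 of Hermes 3A were nearly equal, so that the lines overlapped. The means were 223 CPM ± 33.4 (SD, n = 2) and 305.7 CPM ± 64.0 (SD, n = 3). The log2 difference was -0.52 ± 0.199 (SE; 95% interval -0.98 to -0.05), with an adjusted p of 0.0656, and ZEB2 was not called. It was called, at adjusted p values of 0.0335, 0.0461 and 0.0239, with no filter on low counts, with a stricter filter, and without replicate 1 of Hermes 3A, where the log2 difference was -0.55, -0.57 and -0.65. Over the 11 alternatives its adjusted p ran from 0.0239 to 0.258.

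The balance of the ZEB genes was taken as the log2 ratio of the ZEB1 count to the ZEB2 count, each with 0.5 added. It was -9.16 and -8.93 in 501Mel and -14.31, -12.27 and -12.86 in Hermes 3A. ZEB2 thus exceeded ZEB1 by far in every library, and the lines did not overlap. ZEB1 made up 0.182% of the summed ZEB1 and ZEB2 counts in 501Mel and 0.00891% in Hermes 3A. The mean balances were -9.04 ± 0.168 (SD, n = 2) and -13.15 ± 1.05 (SD, n = 3), a difference of 4.10 by an exact two-sided permutation test with p = 0.1. That is the smallest p that the 10 ways of splitting 5 libraries into 2 and 3 can give, and it holds for the other balances below as well. The Hermes 3A values rest on 0 to 2 ZEB1 counts a library, and with 5 counts added in place of 0.5 the difference was 2.17.

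SNAI1 (ENSG00000124216, chromosome 20, 49982999 to 49988886, plus strand) encodes Snail, the founding repressor of CDH1 in this family. Its level in 501Mel was 5.60 CPM in replicate 1 and 2.22 CPM in replicate 2, from 241 and 84 counts. In Hermes 3A it had 9, 8 and 3 counts, or 0.216, 0.196 and 0.0998 CPM. Every 501Mel library was above every Hermes 3A library, although the 501Mel replicates differed from each other more than those of any other expressed member. The means were 3.91 CPM ± 2.39 (SD, n = 2) and 0.171 CPM ± 0.0621 (SD, n = 3). The log2 difference was 4.39 ± 0.577 (SE; 95% interval 3.04 to 5.75), with an edgeR adjusted p of 0.00104, and it was 3.59 without replicate 1 of 501Mel. As SNAI1 passed the filter on low counts only through 501Mel, this p is given as a description.

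SNAI2 (ENSG00000019549, chromosome 8, 48917604 to 48921740, minus strand) encodes Slug, needed by melanoblasts and kept in melanocytes. It stood at 111.3 and 91.6 CPM in 501Mel and at 155.5, 190.3 and 207.1 CPM in Hermes 3A. The lowest Hermes 3A library was above the highest 501Mel library. Hermes 3A had 1.82 times the mean level, 184 CPM ± 26.3 (SD, n = 3) against 101.4 CPM ± 14.0 (SD, n = 2). The log2 difference was -0.92 ± 0.164 (SE; 95% interval -1.31 to -0.54; edgeR adjusted p = 0.00358), under a 2-fold difference.

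SNAI2 thus exceeded SNAI1 in both lines, and the distance between the paralogs was narrower in 501Mel. The log2 ratio of the SNAI1 count to the SNAI2 count was -4.31 and -5.36 in 501Mel and -9.41, -9.84 and -10.80 in Hermes 3A. SNAI1 made up 3.79% of the summed counts of both genes in 501Mel and 0.0976% in Hermes 3A. The means were -4.83 ± 0.741 (SD, n = 2) and -10.02 ± 0.709 (SD, n = 3), and the difference of 5.18 had the smallest possible p of 0.1 in the exact permutation test. For both families the paralog with more counts was the same in all 5 libraries, ZEB2 and SNAI2.

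**Figure D2:**
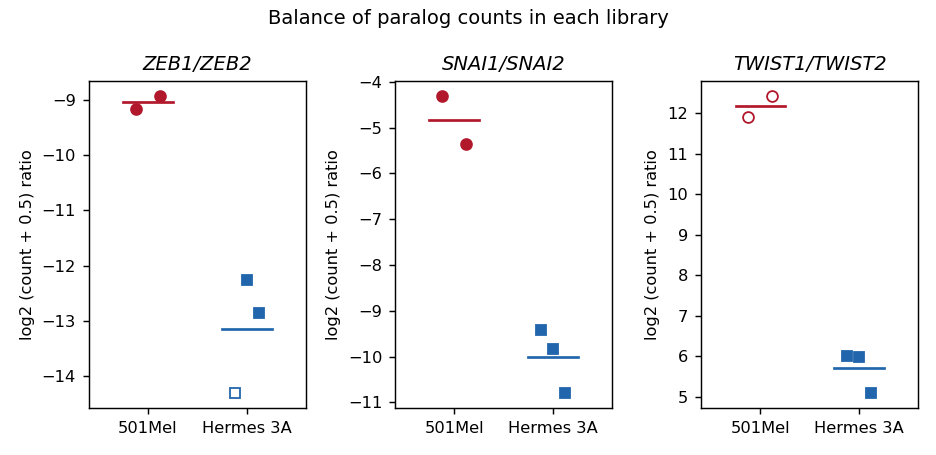
Balance of the paralogs in each library, as the log2 ratio of counts with 0.5 added to each count, for ZEB1 over ZEB2, SNAI1 over SNAI2 and TWIST1 over TWIST2. Circles are 501Mel, squares Hermes 3A, lines the means, and open symbols libraries in which one gene of the pair had 0 counts. The 501Mel libraries lie above the Hermes 3A libraries in all 3 panels, and the vertical axes do not start at 0.

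TWIST1 (ENSG00000122691, chromosome 7, 19020991 to 19117672, minus strand), an E-box factor of cranial neural crest and mesoderm, was expressed in both lines. It stood at 44.7 and 72.5 CPM in 501Mel and at 190.0, 117.0 and 96.8 CPM in Hermes 3A. The replicates were widely spread in both lines, and the lines still did not overlap. The means were 58.6 CPM ± 19.7 (SD, n = 2) and 134.6 CPM ± 49.0 (SD, n = 3), 2.30 times higher in Hermes 3A. The log2 difference was -1.27 ± 0.357 (SE; 95% interval -2.11 to -0.43; edgeR adjusted p = 0.0221), and without replicate 1 of 501Mel it was -0.96 with an adjusted p of 0.123, where the 11 alternatives ran from 0.00124 to 0.123. The antisense gene AC003986.2, over 6.94% of the TWIST1 exon bases, had 26 to 229 counts a library, against 1923 to 7913 for TWIST1.

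TWIST2 (ENSG00000233608, chromosome 2, 238848032 to 238910543, plus strand), a close relative known from dermal mesenchyme, was counted in Hermes 3A and in no 501Mel library. Hermes 3A had 122, 75 and 85 counts, or 2.93, 1.84 and 2.83 CPM, and both 501Mel libraries had 0. Taking 3 counts over the 501Mel group as the limit, TWIST2 was at least 67.5-fold lower in 501Mel (edgeR adjusted p = 0.000577). As it passed the filter on low counts only through Hermes 3A, this p is given as a description. TWIST1 carried 98.2% of the summed TWIST1 and TWIST2 counts in Hermes 3A and all of them in 501Mel. The log2 ratio of TWIST1 to TWIST2 was 11.91 and 12.42 in 501Mel, where it depends on the 0.5 added to a count of 0, and 6.01, 5.98 and 5.09 in Hermes 3A. The difference of 6.47 between the means again had p = 0.1 in the exact permutation test.

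VIM (ENSG00000026025, chromosome 10, 17228259 to 17237593, plus strand) encodes vimentin, the intermediate filament protein of mesenchymal cells and also of melanocytes. It stood at 1318 and 1212 CPM in 501Mel and at 1975, 2734 and 2256 CPM in Hermes 3A. The lines did not overlap, and the mean was 1.84 times higher in Hermes 3A, at 2321 CPM ± 384 (SD, n = 3) against 1265 CPM ± 75.4 (SD, n = 2). The log2 difference was -0.94 ± 0.199 (SE; 95% interval -1.40 to -0.47; edgeR adjusted p = 0.00750). Among all shared genes ordered by CPM per kb, VIM ranked 54 and 60 in 501Mel and 38, 21 and 32 in Hermes 3A. VIM-AS1, an antisense gene over 12.4% of the VIM exon bases, had 46 to 147 counts a library, against 45870 to 111722 for VIM.

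FN1 (ENSG00000115414, chromosome 2, 215360440 to 215436172, minus strand) encodes fibronectin, a matrix glycoprotein bound by integrins. It stood at 2452 and 1807 CPM in 501Mel and at 2371, 1830 and 2476 CPM in Hermes 3A. The libraries of the lines were interleaved, with means of 2129 CPM ± 456 (SD, n = 2) and 2226 CPM ± 347 (SD, n = 3). The log2 difference of -0.13 ± 0.241 (SE) did not pass the test (adjusted p = 0.671), and its 95% interval, -0.70 to 0.43, leaves room for a difference in either direction.

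**Figure D3:**
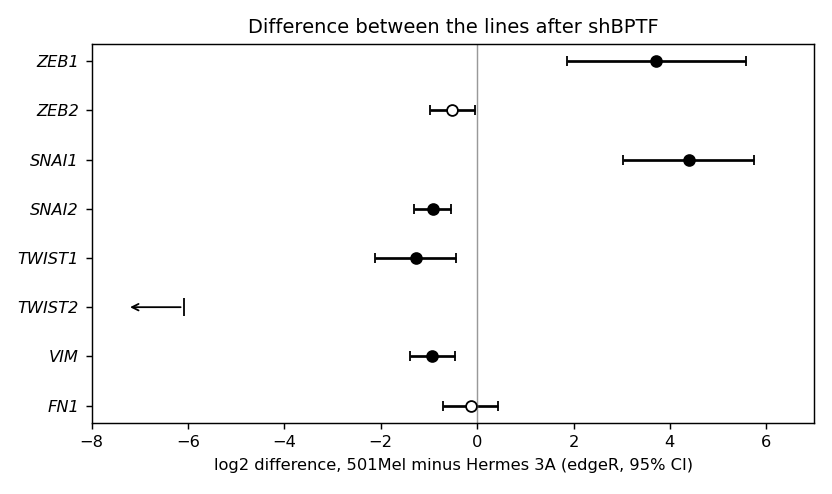
The log2 difference of each gene, 501Mel minus Hermes 3A, from edgeR, with 95% intervals. Filled circles passed an adjusted p of 0.05, open circles did not, and the arrow marks TWIST2, at most -6.08 with 3 counts over the 501Mel group. ZEB1, SNAI1 and TWIST2 passed the filter on low counts through the higher line alone. ZEB1 and SNAI1 lie to the right of 0, SNAI2, TWIST1, TWIST2 and VIM to the left.

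Levels can be compared between genes only per length, for which CPM were divided by the length of the longest principal transcript in GENCODE 29. In 501Mel the order was VIM with 592 CPM per kb, FN1 with 269.6, SNAI2 with 41.8, TWIST1 with 35.2, ZEB2 with 23.4, SNAI1 with 2.32, ZEB1 with 0.0751 and TWIST2 with 0. In Hermes 3A it was VIM with 1087 CPM per kb, FN1 with 282, TWIST1 with 80.8, SNAI2 with 75.9, ZEB2 with 32.0, TWIST2 with 1.802, SNAI1 with 0.101 and ZEB1 with 0.00505. SNAI2 and TWIST1 overlapped between libraries in both lines and were the only neighbours in either order that did. In both lines the markers VIM and FN1 were thus followed by the same 3 factor genes, SNAI2, TWIST1 and ZEB2, and then by a step to the low genes. The libraries were treated with a duplex-specific nuclease, which removes part of the most abundant cDNA, and its effect on the levels of VIM and FN1 was not tested.

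The genes whose levels ran most like each member over the 5 libraries were taken by the smallest root mean square difference of centred log2(CPM + 1) values. For SNAI2 the nearest named gene was PITPNC1, at a distance of 0.0276, and for TWIST1 the nearest were FBXO10, at 0.0768, and MLANA, a melanosome protein gene, at 0.119. MLANA stood at 396.4 and 744.3 CPM in 501Mel and at 1622, 1182 and 1007 CPM in Hermes 3A, the same order of libraries as TWIST1. For ZEB2 they were AC079807.1 and DYM, at 0.0601 and 0.0672, for VIM GOLGA2P7 and PLAC9, at 0.0486 and 0.0591, and for FN1 PTENP1 and NLE1, at 0.0499 and 0.0523. SNAI1 was closest to AC016739.1 and AC126323.3, at 0.0502 and 0.0934, and TWIST2 to AC090819.1 and SERTM2, at 0.0931 and 0.108. ZEB1 levels were so low beside the 1 added that 848 genes lay within 0.1 of it. This is a description over 5 libraries in 2 groups.

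Among 16 other EMT regulators and partners of the TWIST proteins, 15 were tested, 2 were called higher in 501Mel and 5 higher in Hermes 3A, with a median log2 difference of -0.54. The share called was 46.7%, near the 48.4% of all tested genes. TCF12, an E-protein that pairs with TWIST proteins, stood at 171.8 CPM in 501Mel and 83.4 CPM in Hermes 3A, a log2 difference of 0.98 ± 0.142 (SE; edgeR adjusted p = 0.00158). LEF1, a Wnt pathway factor, differed in the same direction by 0.96. ID2, an inhibitor of basic helix-loop-helix factors, stood at 26.2 CPM in 501Mel and 211 CPM in Hermes 3A, a log2 difference of -3.06 (adjusted p = 0.000932). KLF8, a repressor of CDH1, differed by -6.11, with 0.0993 CPM in 501Mel and 6.86 CPM in Hermes 3A, and was the 1 called gene of this list that passed the filter through Hermes 3A alone. ID2 was thus higher in the line with the higher TWIST1 and TWIST2 levels, as were ID1 and ID3, while the E-protein genes TCF3 and TCF4 were not called. A relation of these genes to the TWIST genes was not tested. Without replicate 3 of Hermes 3A, 2 regulators of this list in place of 5 were called higher there.

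Of 20 junction and keratin genes of the epithelial state, a group that ZEB and SNAI proteins are known to repress, 13 were tested. Among them 1 was called higher in 501Mel and 4 higher in Hermes 3A, with a median of 0.08. These calls were 38.5% of the tested genes of the list, against 48.4% of all tested genes. CDH1, which encodes E-cadherin, had 15 and 37 counts in 501Mel, or 0.349 and 0.977 CPM. In Hermes 3A it stood at 15.9, 27.1 and 31.3 CPM, above every 501Mel library. The log2 difference was -5.28 ± 0.541 (SE; edgeR adjusted p = 0.000380), and -6.22 without replicate 2 of 501Mel. The line with the lower CDH1 level had the higher SNAI1 and ZEB1 levels. SNAI2 and KLF8 went the other way, at 184 and 6.86 CPM in Hermes 3A against 101.4 and 0.0993 CPM in 501Mel. So did the members TWIST1 and TWIST2, at means of 134.6 and 2.53 CPM in Hermes 3A against 58.6 and 0 CPM in 501Mel. ZEB2 was not called, at means of 305.7 CPM in Hermes 3A and 223 CPM in 501Mel. This is a description over 2 lines, and a link of any of these genes to CDH1 was not tested. CLDN1, a tight junction claudin, had 3 counts in 501Mel against 3446 in Hermes 3A, a ratio of 825 (Hermes 3A over 501Mel) with a counting interval of 282 to 4004. TJP1, a tight junction scaffold, was higher in 501Mel by 1.31 on the log2 scale. Without replicate 2 of 501Mel 3 genes of this list were called higher in 501Mel, and without replicate 1 of Hermes 3A 2 were. CLDN1 and CLDN4, 2 of the 4 genes called higher in Hermes 3A, passed the filter through that line alone. Of 11 regulators of the epithelial state 6 were tested, and 2 were called in each direction (66.7% in either), with a median of 0.15. GRHL1 and ESRP2 were higher in 501Mel by 2.08 and 2.24, at means of 3.32 and 0.655 CPM there, and ESRP1 and TP63 higher in Hermes 3A, at log2 differences of -1.01 and -2.86. ESRP2 and TP63 passed the filter through the higher line alone. ESRP2 kept its call only without replicate 2 of Hermes 3A, at 3.33, among the fits that left out 1 library, and TP63 lost it without replicate 2 of 501Mel.

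Of 15 other mesenchymal markers 14 were tested, 2 were called higher in 501Mel and 5 higher in Hermes 3A, with a median of -0.54. The share called was 50%, near the 48.4% of all tested genes. CDH2, which encodes N-cadherin, had 12 and 4 counts in 501Mel, or 0.279 and 0.106 CPM. It stood at 29.05, 18.5 and 17.5 CPM in Hermes 3A, a log2 difference of -6.85 ± 0.528 (SE; edgeR adjusted p = 0.000127) and -7.70 without replicate 1 of 501Mel. CDH1 and CDH2 were thus both lower in 501Mel, in every library. The cadherin gene CDH3 was not, at 182 and 418 CPM in 501Mel and 170, 401 and 427 CPM in Hermes 3A. Its log2 difference was -0.19, with an edgeR adjusted p of 0.747. FAP, a surface protease of activated fibroblasts, stood at 1.34 CPM in 501Mel and 160.0 CPM in Hermes 3A, a difference of -6.95 that was -7.92 without replicate 1 of 501Mel. CNN1, a smooth muscle calponin, went the other way with 65 counts in 501Mel and 2 in Hermes 3A, a ratio of 45.2 with a counting interval of 12.03 to 381. Of the 501Mel counts, 53 came from replicate 1 and 12 from replicate 2, and CNN1 was not tested without replicate 1. S100A4, a calcium-binding protein gene, differed by 2.31 (adjusted p = 0.0300), from 96 and 17 counts in 501Mel. Without replicate 1 of 501Mel it differed by 0.75 with an adjusted p of 0.468, without replicate 2 by 3.02, and its call was lost without any one Hermes 3A library and with the replicate block (adjusted p 0.0546 to 0.103). Of the called genes, CNN1, S100A4, CDH2 and CDH11 passed the filter through the higher line alone. The summed level of this list was 1503 CPM in replicate 1 of 501Mel and 710.3 CPM in replicate 2, against 1341 to 1460 CPM in Hermes 3A. The genes called higher in 501Mel numbered 0 without replicate 1 of 501Mel, 4 without replicate 2 and 1 without any one Hermes 3A library.

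Of 8 listed partners of vimentin 6 were tested and 5 were called higher in Hermes 3A, none higher in 501Mel, with a median of -1.84, where 24.1% of all tested genes were called higher in Hermes 3A. INA was not called. NES, the neural crest filament gene nestin, stood at 21.8 CPM in 501Mel and 345.9 CPM in Hermes 3A, a log2 difference of -4.06 (edgeR adjusted p = 0.000808). The 501Mel libraries stood at 33.4 and 10.1 CPM, and the difference was -5.16 without replicate 1 of 501Mel and -3.46 without replicate 2. SYNM, which encodes synemin, a filament protein that joins vimentin, stood at 0.229 CPM in 501Mel and 23.8 CPM in Hermes 3A and passed the filter through Hermes 3A alone. Its difference was -6.74, or -7.53 without replicate 1 of 501Mel.

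Of 12 fibronectin receptors and matrix partners 11 were tested and 8 were called higher in Hermes 3A, none higher in 501Mel, with a median of -3.21, where 24.1% of all tested genes were called higher in Hermes 3A. Without replicate 1 of Hermes 3A 1 gene was called higher in 501Mel. The called genes were the integrin subunits ITGA4, ITGA5, ITGB1, ITGB3 and ITGB5 and the partners FBLN1, THBS1 and PLAUR. The receptor genes ITGAV and SDC4, at 0.15 and 0.01, did not pass, nor did FN1 itself, and ITGA8 was not tested. ITGA4 and ITGB3 passed the filter through Hermes 3A alone. ITGA4, which encodes an integrin subunit that binds fibronectin, had 0 counts in 501Mel against 2786 in Hermes 3A, and was at least 667-fold lower in 501Mel. ITGB3, a beta subunit of a fibronectin-binding integrin, had 2 counts against 1257, a ratio of 451.5 with a counting interval of 125 to 3733. Among 12 genes of TGF-beta signalling, an inducer of SNAI and ZEB genes, all were tested, 2 were called higher in 501Mel and 3 higher in Hermes 3A, with a median of 0.13. These calls were 41.7% of the list, against 48.4% of all tested genes. TGFBR2, the type II receptor, differed by -2.33, with 35.1 CPM in 501Mel and 169 CPM in Hermes 3A. TGFB1 differed by -1.53, with 20.7 and 6.74 CPM in the 501Mel libraries, and by -2.55 without replicate 1 of 501Mel and -0.96 without replicate 2. TGFBR3 and SKIL were higher in 501Mel by 0.60 and 0.47. Neither TGFBR3 nor SKIL was called with DESeq2 or its size factors, or without replicate 2 of either line.

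Of the 8 melanocyte lineage markers, 1 was called higher in 501Mel and 5 higher in Hermes 3A, with a median of -0.97. These calls were 75% of the list, against 48.4% of all tested genes. PMEL and MLANA, melanosome protein genes, differed by -1.39 and -1.22, and without replicate 1 of 501Mel both calls were lost and 2 markers in place of 5 were called higher in Hermes 3A. DCT, the dopachrome tautomerase of melanin synthesis, was higher in 501Mel by 6.87, at 1184 against 9.76 CPM. Of 7 fibroblast markers 6 were tested and COL1A2 alone was called, higher in Hermes 3A at a log2 difference of -10.71, and it passed the filter through Hermes 3A alone. FAP, counted above among the mesenchymal markers, is also known from fibroblasts. The other 5 tested fibroblast markers did not pass, and 1 was called higher in 501Mel without replicate 2 of 501Mel or replicate 1 of Hermes 3A. Of 7 keratinocyte markers 2 were tested and both, KRT10 and TP63, were called higher in Hermes 3A, at -0.49 and -2.86, and neither was called without replicate 2 of 501Mel. KRT10 also lost its call without replicate 1 of 501Mel or replicate 2 of Hermes 3A. Without replicate 3 of Hermes 3A, or with the replicate block, 1 of these markers was called. SNAI2, TWIST1 and VIM were therefore higher in the line with the higher summed melanocyte markers and the higher COL1A2 level, and the part of either in these differences was not tested. The marker sum was mostly PMEL and TYRP1, at means of 16834 and 11954 CPM in Hermes 3A, and neither TYRP1 nor MITF was called.

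**Figure D4:**
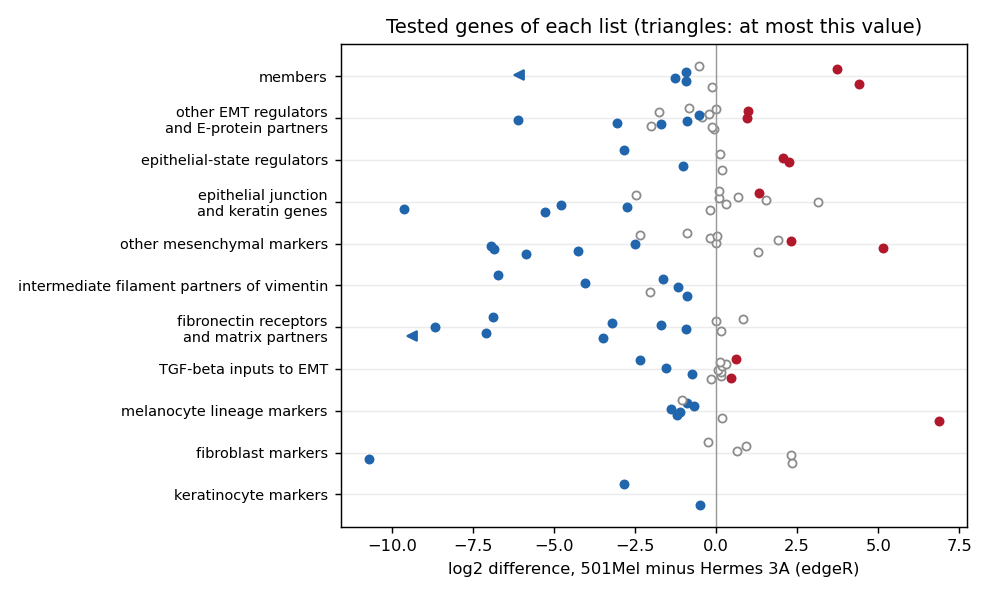
The log2 difference, 501Mel minus Hermes 3A, of every tested gene of each list, from edgeR. Filled red points were called higher in 501Mel, filled blue points higher in Hermes 3A, open points were not called, and triangles are limits for genes with 0 counts in 501Mel (TWIST2 and ITGA4). The called fibronectin receptor and filament genes all lie to the left of 0.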

How the data were processed

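Total RNA of 2 501Mel shBPTF and 3 Hermes 3A shBPTF libraries was depleted of ribosomal RNA, treated with a duplex-specific nuclease and sequenced. The authors deposited raw read counts per Ensembl gene, whole numbers without normalization. Per the submitters' processing notes, CASAVA 1.8, TopHat 1.4.1, Bowtie 0.12.7 and the build hg19 were used. The counting program, its annotation and its use of strand are not given in the sources used here. The files of the lines list different genes, so that the 31029 shared genes were compared, while CPM used the total of each file. The other genes held 0.0938% to 0.712% of the counts of a library.

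Symbols and coordinates came from GENCODE 29 (GRCh38), and promoters from RefSeq (GRCh38.p14). Lines were compared with edgeR 4.0.16 in R 4.3.3 (quasi-likelihood test, TMM, filterByExpr, Benjamini-Hochberg adjustment over 17918 genes, called at 0.05), which was tested on simulated data. Balances of paralogs used an exact permutation test in scipy 1.17.1. Alternatives were DESeq2 1.42.0, its size factors (RLE), total counts, other filters on low counts, a 2-fold threshold, a replicate block, and each library left out in turn. Shared sequence was searched with blastn 2.17.0: 40.7% of the bases of the VIM principal transcript (all with its antisense genes), 4.79% of that of ZEB2 and 0.922% of that of ZEB1 matched another gene at a length of 50 bases and 98% identity, and none of the other members. All members are named, and of each other list up to 2 called genes with the largest difference in each direction, with CDH1 and CDH2 always. Other genes of the lists that are named (such as CLDN4, CDH3, CDH11, ID1, ID3, INA and further integrin genes) were added after their values were seen. Members and lists were chosen with earlier results of these data known.

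No pair of replicates was counted as 1 library, since chi-square per gene between replicates was 19.4 to 90.7. The numbers of the replicates were not taken to pair the lines.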

Additional observations from a re-analysis of the deposited data

How the results depend on the processing

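Over 11 alternatives a gene, and with the 2-fold threshold, the 8 members kept direction and call in 88 of 96 values. With a 2-fold threshold SNAI2 and VIM were no longer called, which left 2 members called higher in Hermes 3A. Leaving out 1 library at a time, 1 to 2 members were called higher in 501Mel and 3 to 5 higher in Hermes 3A, and over all genes 2871 to 4595 and 3233 to 4687 were. The lowest value in each case was that without replicate 1 of 501Mel. ZEB1 (3.13 to 4.43) and TWIST1 (-1.70 to -0.91) kept their direction in these fits, and FN1, which was not called in any of them, ran from -0.36 to 0.043, the last without replicate 2 of 501Mel. The cause was not tested. With 1 library left in 501Mel, its spread is assumed to be that of the other group. Of 347 values for 29 other genes 307 kept direction and call, 40 lost the call and 0 turned.

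The replicate block could use only the numbers 1 and 2 that both lines share, and libraries with the same number correlated by 0.102 and 0.137 in their deviations from the group means. With the block, 3641 genes were called higher in 501Mel and 3855 higher in Hermes 3A, with the same numbers of members (2 and 4). The balance differences within shared numbers were 4.24 for ZEB1 over ZEB2, 4.79 for SNAI1 over SNAI2 and 6.17 for TWIST1 over TWIST2. With other scalings in edgeR 4243 to 4704 genes were called higher in 501Mel and 4069 to 4348 in Hermes 3A, and with DESeq2, which also changes the test, 4289 and 4678 were. With union exon lengths levels per kb were lower for every member but SNAI1, for example 245.2 in place of 592 for VIM in 501Mel, in the same order.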
